A study of Mus musculus with 32 samples.

Results

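Trichostatin A (TSA) was compared with no TSA in C2C12 cells that had spent 24 h in differentiation medium. C2C12 is an established mouse myoblast line whose cells leave the cell cycle and fuse into myotubes in such medium. The comparison was chosen by array title and time, not by any measured value, and uses 4 of the 32 arrays of the series: replicates 2 and 3 of the TSA-treated cells and replicates 2 and 3 of the control cells. Both groups are labelled C2C12 total RNA after 24 h in differentiation medium and carry no other named treatment or genetic change, so TSA is the labelled difference between them. The dose of TSA, when it was added, whether it was washed out and what the control cells received are not given in the sources used here. Nor do the labels say that replicates came from separate cultures, so the p-values below measure the spread between arrays, which may be technical. All 4 arrays belong to a set of 20 that covers TSA and control cells at 0, 4, 12, 24 and 48 h with 2 arrays each.

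TSA blocks the zinc-dependent histone deacetylases, which remove acetyl groups from histones and other proteins. In myoblasts, MyoD and myogenin with Mef2 factors switch on the genes of the contractile apparatus as cells leave the cycle, and class II deacetylases are known to hold Mef2 factors back. Differentiating muscle cells also make a transient endoplasmic reticulum (ER) stress response: phosphorylation of the initiation factor eIF2alpha favours translation of Atf4, which raises Ddit3 (CHOP), Trib3 and enzymes of amino acid supply, while Atf6 and Xbp1 raise ER chaperones.

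The values are Affymetrix probe set intensities on a linear scale, on which a transcript that is not detected can lie below 0. On the 4 arrays the median intensity lay between 267 and 281, and the rank correlation between replicates was 0.932 for TSA and 0.939 for control. The ratio of 3' to 5' probe sets for Gapdh, a sign of RNA integrity, was 0.800 and 0.841 on the TSA arrays and 0.871 and 0.944 on the control arrays, so it was lower with TSA, and its part in the results was not tested. All 10 genes of the skeletal myoblast marker list were tested, which rests on their means over 20 arrays. Their summed intensity ran from 39594 to 42429 with TSA and from 42017 to 43995 in control. A sum does not show that each marker was present, and Ckm was dim on the TSA arrays. Of these 10, Des and Cdh15 were higher with TSA and Acta1, Tnnc1 and Ckm lower in the limma test described next. Of the markers of adipocytes (3 tested), bone and cartilage (3), neurons (8), leukocytes (4) and endothelium (2), 0 passed in that limma test. At an unadjusted limma p under 0.05 there were 2 neuronal and 1 leukocyte marker, all lower with TSA. As 6.25% of all genes tested passed, a count of 0 says little alone. At or below 0 on all 4 arrays were Cidec of adipocytes, Matn1 of cartilage, and Snap25, Nefm and Map2 of neurons. So were Cd3e and Coro1a of leukocytes, and Cdh5, Vwf and Eng of endothelium. They were 1 of 8 adipocyte, 1 of 5 bone and cartilage and 3 of 14 neuronal markers on the array. For leukocytes and endothelium they were 2 of 11 and 3 of 9, so most markers were above 0 on at least 1 array. The largest sum among these lists was neuronal, at 13201 to 14656 with TSA and 14376 to 15516 in control. These are bulk samples, in which fewer cells of a type and less RNA per cell cannot be told apart.

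Across the array, 156 genes were higher and 196 lower with TSA at 24 h, of 5636 genes tested, which is 2.77% and 3.48%. Each gene stands for its brightest tested probe set. The test was limma on log2(intensity + 138), with values below 0 set to 0, and a gene passed at an adjusted p under 0.05 after Benjamini-Hochberg adjustment over the 7453 probe sets tested, of which 443 passed (5.94%); the 352 genes are 6.25% of those tested. The spread came from all 20 arrays, and a log2 change understates the change of dim genes because of the added constant. Lower genes moved further than higher ones: 85 fell by more than 1 on the log2 scale and 42 rose by more than 1, and the median change was -0.93 among the lower and 0.77 among the higher. In none of the 352 genes did the TSA and control arrays overlap, but with 2 arrays a group 45.4% of all probe sets are free of overlap, so this says little alone, and precision is limited by having so few arrays. Both TSA arrays were at or below 0 for 5 of the lower genes (Igf2, Cox6a2, Pygm, Colq and Aldh3a1), and both control arrays for 4 of the higher genes (Cx3cl1, Prkg2, Il4ra and Ppif), so these have no fold. Among them Colq passed in none of the 4 fits that leave out an array (adjusted p up to 0.16), Aldh3a1 passed only without control replicate 2 and Ppif only without TSA replicate 3. Without control replicate 3, control replicate 2, TSA replicate 3 or TSA replicate 2, 231, 278, 237 and 257 probe sets passed, and with the spread taken from these 4 arrays alone 9 did. Of the genes, 118 of the 352 (43 higher, 75 lower) passed in each of the 4 fits that leave out an array. A group left with 1 array is then assumed to vary like the other groups. Most genes described in detail below are from those 118.

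**Figure D1:**
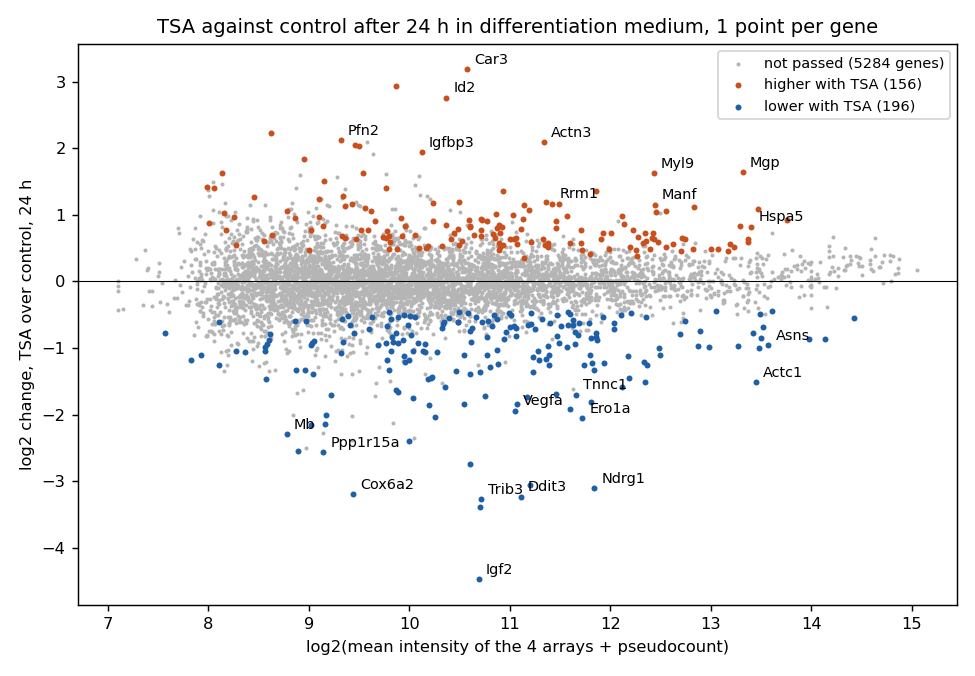
Change with TSA at 24 h against mean intensity, 1 point per gene; the horizontal axis is log2(mean intensity of the 4 arrays + pseudocount) and the vertical axis is the log2 change, TSA over control. The 196 lower genes (blue) reach further from 0 than the 156 higher genes (orange), with Igf2, Trib3, Ddit3, Cox6a2 and Ndrg1 among the lowest and Car3 and Id2 among the highest; Igf2 and Cox6a2 were at or below 0 on both TSA arrays, so their position is set by the pseudocount.

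Several of the deepest falls with TSA were in the eIF2alpha and Atf4 branch of the stress response. In the text below, the replicate 2 array is given first and replicate 3 second. Ddit3, the transcription factor CHOP, read 333 and 247 on the TSA arrays and 4002 and 3705 on the control arrays. All control values lay far above both TSA values, a 13.3-fold lower mean with TSA and a log2 change of -3.23 ± 0.34 (SE; adjusted p = 0.000126). Trib3, a pseudokinase that acts with CHOP, read 272 and 101 with TSA and 3261 and 2535 in control, again without overlap and with a change of -3.27 ± 0.39 (adjusted p = 0.000268). Ppp1r15a, the subunit that directs a phosphatase to eIF2alpha and so ends the block on translation, read 32.7 and 18.2 against 887 and 769.7, so it was close to 0 with TSA and clearly present in control (-2.56 ± 0.17, adjusted p = 1.95e-06). In untreated cells all 3 genes were low at 12 h, at mean intensities of 213 for Ddit3, -27.3 for Trib3 and -163 for Ppp1r15a. The TSA array means at 24 h thus stood near the level that control cells had at 12 h.

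Of the 33 genes of the list for ER stress and the amino acid response that are on the array, 30 were tested. Of these 13 were lower and 4 higher, beside 3.48% and 2.77% over all genes tested. The median log2 change was -0.63 beside -0.0030 over all genes tested. Left out 1 at a time, the arrays gave 11 to 12 lower and 1 to 2 higher. Further transcription factors among the lower members were Atf5 (556 and 1106 against 3202 and 3174; -1.84 ± 0.23) and Cebpb (749 and 843 against 2145 and 2371; -1.36 ± 0.14), both of which stayed apart from control on every array. Atf4, the factor upstream of these genes, read 10352 and 12263 with TSA and 19645 and 21664 in control, a smaller change of -0.86 ± 0.16 (adjusted p = 0.00655). It missed the threshold without control replicate 3 (adjusted p = 0.0626) and without TSA replicate 2 (0.0634). Herpud1, which serves the degradation of ER proteins, fell by 0.88 ± 0.14 on the log2 scale. Vegfa, an angiogenic growth factor, read 689 and 796 with TSA and 3452 and 3019.9 in control, a 4.36-fold lower mean.

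Of the genes for amino acid supply in that list, Asns, Psat1, Psph, Slc3a2, Slc7a5 and Wars were lower, and Phgdh, Shmt2, Aars and Gars did not pass. Asns, asparagine synthetase, read 8313 and 7982 with TSA and 15266 and 16607 in control, so the control arrays stood at about 1.96-fold the TSA level (-0.96 ± 0.16, adjusted p = 0.00363). Psat1 and Psph act in serine synthesis: Psat1 read 8243 and 7965 against 15713 and 13787 (-0.85 ± 0.10). For Psph the values were 4481 and 2701 against 7781 and 7549, with TSA replicate 2 well above TSA replicate 3, and its call was lost without control replicate 3 (adjusted p = 0.11), without control replicate 2 (0.115) or without TSA replicate 3 (0.215). Phgdh, the first enzyme of that pathway, was at -0.17 ± 0.16 (adjusted p = 0.688), and Shmt2, a mitochondrial serine hydroxymethyltransferase, at -0.14 ± 0.37 (adjusted p = 0.911). Slc3a2 and Slc7a5, the heavy and light chain of a transporter of large neutral amino acids, fell by 0.99 and 0.98 on the log2 scale. Wars, the tryptophanyl-tRNA synthetase, changed by -1.11 ± 0.14 on its brightest probe set and by -0.73 on a second (adjusted p = 0.044), while another, dimmer one did not pass (-0.23, adjusted p = 0.923). The synthetases Aars (-0.48 ± 0.14, adjusted p = 0.0581) and Gars (-0.61 ± 0.18, adjusted p = 0.0722) did not pass.

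Genes outside the list, chosen after their values were seen, had related functions. Slc1a4, a neutral amino acid transporter, read 642 and 403 with TSA and 2364 and 2030.4 in control. Pck2, the mitochondrial phosphoenolpyruvate carboxykinase, read 1255 and 1131 against 4071 and 4262. Neither gene's arrays overlapped between the groups, and the log2 changes were -1.84 ± 0.17 and -1.69 ± 0.26. Nupr1 (a small nuclear stress protein; -1.33), Mthfd2 (mitochondrial folate metabolism; -1.0) and Eif4ebp1 (a repressor of translation initiation; -1.1) were lower too, and all 5 passed without each array in turn. A further group of tRNA synthetases were lower by less, Lars (-0.71), Eprs (-0.70), Nars (-0.63) and Iars (-0.48). Each of these missed the threshold without control replicate 3 and without TSA replicate 2, with adjusted p up to 0.147 for Eprs, and Iars also without TSA replicate 3 (0.0692). Lonp1, a mitochondrial protease named by the rule for the largest changes, read 445 and -32.5 with TSA and 3144 and 2547 in control (-3.39 ± 0.53, adjusted p = 0.00206). A second, dimmer probe set of Lonp1 did not pass (-0.45, adjusted p = 0.339).

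The 4 higher members of the list were the ER chaperones and folding enzymes Hspa5, Pdia4, Pdia6 and Dnajc3, none of which passed in every fit with an array left out. Hspa5 (BiP), the main Hsp70 chaperone of the ER, read 13405 and 13898 with TSA and 8223 and 7144 in control. Both TSA arrays were higher than both control arrays, by 1.78-fold in the mean (0.82 ± 0.16, adjusted p = 0.0097). Over time the TSA mean hardly moved, at 13398 ± 1368 (SD, n = 2) at 12 h and 13652 ± 348 at 24 h, whereas the control mean was 11157 ± 2193 at 12 h, 7683 ± 763 at 24 h and 14469 ± 1775 at 48 h. The protein disulphide isomerases Pdia4 (3664 and 4501 against 2279.9 and 2354) and Pdia6 (6217 and 6109 against 4217 and 3830.2) were higher by 0.77 and 0.60 on the log2 scale, and the co-chaperone Dnajc3 by 0.91. Hspa5 missed the threshold without control replicate 3 (adjusted p = 0.0897) and without TSA replicate 3 (0.0666). Pdia4 missed it without control replicate 3 (0.0582), control replicate 2 (0.0646) or TSA replicate 3 (0.104). Pdia6 missed it without control replicate 3 (0.0958), TSA replicate 3 (0.0589) or TSA replicate 2 (0.0659), and Dnajc3 without control replicate 2 (0.0633) or TSA replicate 2 (0.0642). Dnajc3 has 2 more probe sets, and both passed, at 1.36 and 1.05.

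Further ER genes were higher on the same side. Manf, an ER protein that is secreted under stress, read 8535 and 6550.2 with TSA and 3571 and 3017 in control, so both TSA values exceeded both control values (2.29-fold, 1.15 ± 0.14, adjusted p = 0.000235). Creld2, another ER protein raised by stress, read 1901 and 1825 against 986 and 977 (0.84 ± 0.16), and Slc35b1, a carrier in the ER membrane, read 5126 and 4845 against 3025 and 2867 (0.73 ± 0.13). The groups did not overlap for these 3 genes, and each passed without each array in turn; Creld2 and Slc35b1 were chosen after their values were seen. Hsp90b1 (0.26 ± 0.16, adjusted p = 0.456) and calnexin, Canx (0.35 ± 0.18, adjusted p = 0.354), did not pass. Nor did the disulphide isomerase Pdia3 (0.53 ± 0.15, adjusted p = 0.0608) or the co-chaperone Dnajb9 (0.53 ± 0.21, adjusted p = 0.192). Of the enzymes that oxidise the disulphide isomerases, Ero1a was lower with TSA, at 1532 and 877 against 5208 and 5307 (-2.05 ± 0.31, adjusted p = 0.00167). Ero1b, its close relative, was dim and higher, at 242 and 221 against 95.8 and 132 (0.55 ± 0.14), but passed in none of the 4 fits with an array left out (adjusted p from 0.0737 to 0.219).

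The ER stress response element (ERSE), CCAAT and CCACG with 9 bases of any kind between them, is the sequence through which Atf6 and Xbp1 are known to act, and it is shown because the genes that hold it were on the higher side. In the 250 bases before the start of each gene (RefSeq, build GRCm38.p6, both strands searched), it occurred in 37 of 32851 windows (0.113%) and in 10 of the 4542 tested genes that have a window (0.220%). Among the genes with a window, 5 of 125 higher genes held it (4.00%: Hspa5, Dnajc3, Creld2, Pdia6 and Ero1b) and 0 of 161 lower genes. The other 5 tested genes with the element, Canx, Hsp90b1, Adcy3, Pan2 and Ptgdr2, did not pass. Both this motif and the next ones were picked after the changes had been seen, so the counts are a description. The windows of 4 of the higher genes follow, 5' to 3' on the strand of the gene with the element in capitals: Hspa5 at chr2:34771840-34772089 on the plus strand, Dnajc3 at chr14:118937682-118937931 on the plus strand, Creld2 at chr15:88819396-88819645 on the plus strand (where the element reads in the reverse direction) and Pdia6 at chr12:17266339-17266588 on the plus strand.
Hspa5: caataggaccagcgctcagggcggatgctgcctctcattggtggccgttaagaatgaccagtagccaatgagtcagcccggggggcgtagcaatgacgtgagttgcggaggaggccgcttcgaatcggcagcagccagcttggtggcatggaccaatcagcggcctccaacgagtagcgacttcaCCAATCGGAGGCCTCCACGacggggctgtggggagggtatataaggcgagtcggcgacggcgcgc
Dnajc3: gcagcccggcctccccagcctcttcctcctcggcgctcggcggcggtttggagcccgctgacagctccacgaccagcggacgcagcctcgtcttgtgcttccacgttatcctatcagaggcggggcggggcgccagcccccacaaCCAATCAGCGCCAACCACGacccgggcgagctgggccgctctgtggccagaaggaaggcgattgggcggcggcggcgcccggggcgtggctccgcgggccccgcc
Creld2: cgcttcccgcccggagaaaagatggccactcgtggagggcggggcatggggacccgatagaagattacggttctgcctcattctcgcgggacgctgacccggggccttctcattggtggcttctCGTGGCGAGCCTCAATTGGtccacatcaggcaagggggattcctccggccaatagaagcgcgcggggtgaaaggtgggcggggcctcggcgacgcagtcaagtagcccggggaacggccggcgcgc
Pdia6: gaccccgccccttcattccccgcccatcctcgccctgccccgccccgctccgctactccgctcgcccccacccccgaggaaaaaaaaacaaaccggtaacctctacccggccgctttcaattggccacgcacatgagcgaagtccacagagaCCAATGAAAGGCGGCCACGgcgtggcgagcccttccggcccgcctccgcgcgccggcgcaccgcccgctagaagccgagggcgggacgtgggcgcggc

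The C/EBP-ATF response element (CARE), TGATGNAA, is the composite site at which Atf4 is known to bind with C/EBP factors. It is short, so it was found in 3.45% of all windows and in 105 of the 4542 tested genes (2.31%). It occurred in 8 of the 161 lower genes (4.97%: Asns, Pck2, Nupr1, Herpud1, Chchd10, Arl14ep, Serpinf1 and Vldlr) and in 4 of the 125 higher genes (3.20%). The windows of 3 lower genes of amino acid and stress metabolism are shown with the match in capitals: Asns at chr6:7693210-7693459 on the minus strand, Pck2 at chr14:55540016-55540265 on the plus strand and Nupr1 at chr7:126625471-126625720 on the minus strand, the latter pair in the reverse direction. A match is a run of letters and not a shown site of binding.
Asns: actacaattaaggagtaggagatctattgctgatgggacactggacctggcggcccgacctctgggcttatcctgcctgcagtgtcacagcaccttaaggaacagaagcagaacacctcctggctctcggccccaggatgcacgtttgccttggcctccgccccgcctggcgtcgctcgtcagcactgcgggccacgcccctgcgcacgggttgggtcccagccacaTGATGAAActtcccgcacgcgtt
Pck2: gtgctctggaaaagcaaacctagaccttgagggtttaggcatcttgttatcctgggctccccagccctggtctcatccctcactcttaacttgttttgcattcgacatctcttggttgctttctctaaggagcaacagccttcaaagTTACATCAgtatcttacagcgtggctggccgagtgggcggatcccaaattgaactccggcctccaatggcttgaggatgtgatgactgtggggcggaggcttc
Nupr1: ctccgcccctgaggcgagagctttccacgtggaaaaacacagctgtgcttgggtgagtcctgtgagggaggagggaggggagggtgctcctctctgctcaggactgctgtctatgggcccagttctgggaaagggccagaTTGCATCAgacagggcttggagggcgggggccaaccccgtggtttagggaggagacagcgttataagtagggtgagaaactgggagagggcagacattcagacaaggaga

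Of 17 tested glycolytic and hypoxia-responsive genes, 9 were lower with TSA and 0 higher, the median was -0.87, and 7 to 8 were lower with any 1 array left out. Beside these counts stand 3.48% lower and 2.77% higher over all genes tested. Ndrg1, a gene outside these 17 that responds to hypoxia and to stress, read 556 and 701 with TSA and 6297 and 6548 in control. The control arrays were thus 10.2-fold higher in the mean, with a change of -3.1 ± 0.17 (adjusted p = 3.56e-07), and a second probe set changed by -3.84. Pdk1, the kinase that turns pyruvate away from mitochondria, read 766 and 575 against 2265 and 2742 (-1.71 ± 0.14, adjusted p = 1.87e-05). Bnip3, a receptor for the removal of mitochondria, read 315 and 371 against 1406 and 1561 (-1.75 ± 0.22). In both genes the lowest control value was more than the highest TSA value. The phosphofructokinases Pfkl (-1.45 ± 0.17) and Pfkp (-1.33 ± 0.20) and the collagen prolyl hydroxylase subunits P4ha1 (-1.25 ± 0.15) and P4ha2 (-1.16 ± 0.13) also fell, as did triosephosphate isomerase, Tpi1, from a high level (13016 and 12146 against 23481 and 22578; -0.87 ± 0.13).

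Smaller falls were seen for lactate dehydrogenase A, Ldha (-0.54), and phosphoglycerate mutase, Pgam1 (-0.49). Ldha passed only without control replicate 2 among the 4 fits that leave out an array, and Pgam1 in none of them (adjusted p up to 0.143). The glucose transporter Slc2a1 (-1.15 ± 0.36, adjusted p = 0.0885) and hexokinase 2, Hk2 (-1.19 ± 0.56, adjusted p = 0.279), did not pass. Slc2a1 read 908 and 358 with TSA and 1498 and 1427 in control, and it passed without TSA replicate 2 (-1.69, adjusted p = 0.0285); without 1 array its change ran from -1.69 to -0.61. Fam162a, chosen after its values were seen, read 1979 and 2178 with TSA and 6329 and 6728 in control, without overlap (-1.59 ± 0.17). In untreated cells Bnip3 and Pdk1 were high at 24 h alone: the Pdk1 mean was 782 at 12 h, 2504 at 24 h and 603 at 48 h. With TSA it was 575, 671 and 1491, so that the TSA arrays were lower at 24 h and higher at 48 h (a difference of 2.85 ± 0.20 between the log2 changes at 48 h and 24 h, adjusted p = 3.11e-06).

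Genes of the contractile apparatus were partly lower with TSA at 24 h. The counts below are to be read beside 3.48% lower and 2.77% higher over all genes tested. Of 28 tested sarcomere genes 9 were lower and 2 higher, with a median of -0.50; with an array left out, 5 to 7 were lower and 0 to 2 higher. Tnnc1, the calcium-binding troponin of slow and cardiac fibres, read 1485 and 1288 with TSA and 4835 and 4770.0 in control (3.46-fold lower, -1.7 ± 0.26, adjusted p = 0.00188). Actc1, cardiac actin, the main sarcomeric actin of early myotubes, read 5564 and 5800.0 against 16600.4 and 16280.3, with the arrays of each group close together and far from the other group (-1.51 ± 0.14, adjusted p = 5.75e-05). Embryonic myosin heavy chain, Myh3, read 427 and 539.8 against 1572 and 1562 (-1.46 ± 0.14). The atrial and embryonic light chain Myl4 (-1.59 ± 0.16) and the myosin-binding protein Mybph (-0.97 ± 0.14) were lower as well, and these 5 genes passed without each array in turn.

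The other 4 lower members did not pass in every fit with an array left out. Their changes stayed below 0, for Tnni1 between -1.52 and -1.49 and for Acta1 between -1.32 and -0.92. Slow troponin I, Tnni1 (-1.5 ± 0.34), and skeletal actin, Acta1 (-1.12 ± 0.27), passed in none of the 4 fits with an array left out, with adjusted p from 0.0898 to 0.0966 and from 0.0521 to 0.168. Fast troponin T, Tnnt3 (-1.12 ± 0.24), passed only without TSA replicate 3, and the M-band protein Myom2 (-0.88 ± 0.21) only without control replicate 3. The 2 higher members were alpha-actinin 3, Actn3, at 3449 and 4609.9 against 557 and 1215, and desmin, Des, at 3082 and 4786 against 1869.5 and 1876. For Actn3 control replicate 3 was more than the other control array, and the call was lost without control replicate 2 (adjusted p = 0.142), without TSA replicate 3 (0.118) or without TSA replicate 2 (0.0535), though a second probe set passed at 1.57. For Des the call was lost without TSA replicate 3 (adjusted p = 0.0521). Myl1 (-0.63 ± 0.29, adjusted p = 0.279) and Mylpf (0.16 ± 0.14, adjusted p = 0.62), light chains of fast fibres, did not pass.

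Muscle metabolism followed the same direction, with 5 of 13 tested genes lower and 1 higher (median -0.54). These counts stand beside 3.48% lower and 2.77% higher over all genes tested. Cox6a2, the muscle form of a cytochrome oxidase subunit, was listed at -177 and -384 on the TSA arrays and at 1117 and 1119.7 on the control arrays (adjusted p = 3.71e-10). It was not above 0 on either TSA array and clearly present on both control arrays, so no fold is given, and its p may be too small, since values set to 0 have no spread. Myoglobin, Mb, read -86.3 and 27.4 against 688 and 519 (adjusted p = 0.000358). Muscle creatine kinase, Ckm, read 96.7 and 56.6 against 292 and 326 (-1.06 ± 0.18), and glycogen phosphorylase, Pygm, was listed below 0 on both TSA arrays (-14.3 and -24.8) against 229 and 129. The fifth lower gene, Ldha, is counted above. Carbonic anhydrase 3, Car3, an enzyme of slow muscle and fat, went the other way at 2609.6 and 2614 against 143 and 189: the TSA arrays were 15.7-fold higher in the mean (3.18 ± 0.48, adjusted p = 0.00162). Of 16 tested genes of excitation-contraction coupling and the neuromuscular junction 1 was lower. Beside 3.48% over all genes tested this count says little alone. The lower gene was the calcium pump Atp2a1, at 443 and 571 against 1782 and 1428 (-1.43 ± 0.21). A second probe set of Atp2a1 fell by 2.32 on the log2 scale.

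The tested myogenic factors did not pass. Over all genes tested 6.25% passed, so counts of 0 among 14 and 28 genes say little alone. Among 14 tested myogenic factors 0 passed in limma (5 at an unadjusted p under 0.05), and the median was -0.068. Myogenin, Myog, read 5388 and 5350.0 with TSA and 7210.0 and 8627 in control, so the TSA arrays were lower, but its spread over the 20 arrays was wide (-0.54 ± 0.44, adjusted p = 0.593). Myod1 read 3494 and 3577 against 3051 and 3023 (0.21 ± 0.11, adjusted p = 0.332), and Myf5 read 1252 and 1294 against 1753 and 2060.1 (-0.53 ± 0.18, adjusted p = 0.109). The smallest p of the list was that of Six4 (0.77 ± 0.24, adjusted p = 0.0923). Without 1 of the arrays, up to 1 factor passed. Among 28 tested genes of TGF-beta and follistatin signalling 0 passed in limma (5 at an unadjusted p under 0.05, and 0 to 1 adjusted with an array left out). Follistatin, Fst, which binds myostatin and activin, read 504 and 548 against 415 and 289 (0.45 ± 0.19, adjusted p = 0.226) at 24 h, and 14206 ± 345 against 512 ± 131 (mean ± SD, n = 2) at 48 h.

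**Figure D2:**
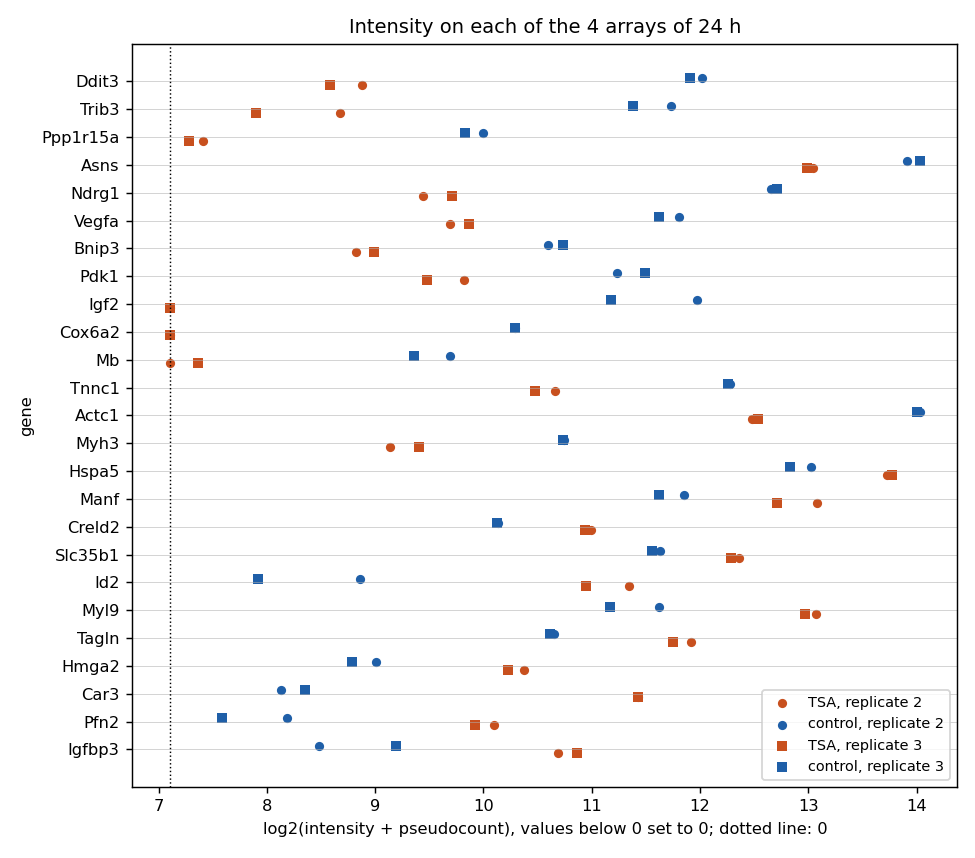
Values of 25 genes on each of the 4 arrays; the horizontal axis is log2(intensity + pseudocount), with values below 0 set to 0 (dotted line), circles are replicate 2 and squares replicate 3, orange is TSA and blue is control. All genes shown passed at 24 h, and no gene that passed overlapped between the groups. That both arrays of 1 treatment lie on the same side of both arrays of the other thus follows from the choice of genes. For Igf2 and Cox6a2 the 2 TSA points lie on the dotted line and cover each other.

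Among inhibitors of myogenic factors, Id2 was far higher with TSA. Id2, which binds E proteins and keeps them from MyoD, read 2468 and 1834 with TSA and 327 and 104 in control. The TSA arrays were 9.98-fold higher in the mean and did not overlap with control (2.76 ± 0.25, adjusted p = 4.61e-05). The control arrays were dim and differed from each other, so this fold is imprecise. The mean of Id2 was 4931 at 0 h and 216 at 24 h in control, and 6359 and 2151 with TSA. Its relatives Id1 (0.30 ± 0.25, adjusted p = 0.617) and Id3 (0.53 ± 0.34, adjusted p = 0.481) did not pass. Of the 12 tested genes of this list 1 was higher and 1 lower. Beside 2.77% and 3.48% over all genes tested, these counts say little alone. The lower one was Snai2, a repressor of the Snail family, at 1693 and 2406 against 4773 and 4982 (-1.22 ± 0.18, adjusted p = 0.00167).

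In the insulin-like growth factor (IGF) axis 2 of 10 tested genes were higher and 2 lower, beside 2.77% and 3.48% over all genes tested. Igf2, the ligand that myoblasts make as they differentiate, was listed at -25.7 and -231 on the TSA arrays and at 3877 and 2176 on the control arrays (adjusted p = 5.03e-08). Both TSA arrays were thus at or below 0, so no fold is given and the p may be too small. At 48 h Igf2 was present in both groups, at 18780.4 ± 4088 with TSA and 16117 ± 1529.8 in control (mean ± SD, n = 2; log2 change 0.21 ± 0.20, adjusted p = 0.527). The binding protein genes diverged: Igfbp3 read 1513 and 1731 against 219 and 449 (1.94 ± 0.32) and Igfbp2 10496 and 9219.5 against 4417 and 4504 (1.12 ± 0.12), both higher with TSA. A second probe set of Igfbp3 rose by 3.95 from a control mean below 0. Igfbp6 was lower, at 769 and 1108 against 3609.8 and 3167 (-1.73 ± 0.36), and lost its call without control replicate 3 (adjusted p = 0.0616), control replicate 2 (0.0837) or TSA replicate 2 (0.101).

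Few genes of mitosis passed, but over all genes tested only 2.77% were higher and 3.48% lower, so this low count says little alone. Replication genes passed near the threshold. Of 37 tested genes of mitosis 1 was lower, the spindle protein Nusap1 (-0.83 ± 0.16), whose call was lost without control replicate 3 (adjusted p = 0.0523) or TSA replicate 2 (0.0513), and the median was 0.0079. DNA replication genes leaned higher, with 8 of 34 higher, 1 lower and a median of 0.36. The higher ones were the ribonucleotide reductase subunits Rrm1 (1.17) and Rrm2 (0.73), the licensing genes Cdc6 (1.13), Mcm4 (0.93) and Mcm7 (0.57), the flap nuclease Fen1 (0.92), and the clamp and its loader, Pcna (0.56) and Rfc3 (0.65). The lower one was Rfc4, another clamp loader subunit (-0.88). These calls were close to the threshold: without any 1 array, 0 to 1 of the 34 were higher and 0 to 1 lower, while the list median stayed between 0.28 and 0.41. Rrm1 read 3946 and 3370.3 with TSA and 1752 and 1365 in control, so the TSA arrays were higher without overlap (1.17 ± 0.31, adjusted p = 0.0477).

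Among 22 tested genes of cell cycle exit 2 were higher and 3 lower, beside 2.77% and 3.48% over all genes tested. Gadd45a, a stress-inducible regulator of growth arrest, read 1390.0 and 1515 with TSA and 5627 and 5281 in control (-1.81 ± 0.22, adjusted p = 0.000267). Its relative Gadd45b was higher, at 966 and 803 against 255 and 438 (1.1 ± 0.26), but not without control replicate 2 (adjusted p = 0.183), TSA replicate 3 (0.0723) or TSA replicate 2 (0.138). Cyclin D1, Ccnd1 (0.85 ± 0.23), and the cyclin-dependent kinase inhibitor Cdkn1c (-0.89 ± 0.21) passed in none of the 4 fits with an array left out, with adjusted p up to 0.226 and 0.185. The growth arrest gene Gas1 (-0.67 ± 0.18) passed only without TSA replicate 3. Cdkn1a (p21), the cyclin-dependent kinase inhibitor best known as a target of deacetylase inhibition, read 7822 and 7456 with TSA and 3489 and 3840.1 in control, 2.08-fold higher in the mean, but did not pass (1.03 ± 0.54, adjusted p = 0.352); a second probe set just passed (0.67, adjusted p = 0.0498).

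Of 24 tested chromatin genes 3 were higher and 0 lower, beside 2.77% and 3.48% over all genes tested. Hmga2, an architectural protein of proliferating cells, read 1187 and 1062 with TSA and 376 and 303 in control (3.31-fold, 1.41 ± 0.13, adjusted p = 4.03e-05). Its mean was 2330.4 at 12 h and 339.5 at 24 h in control, and 3339 and 1124 with TSA. Hdac1, a deacetylase that TSA inhibits, read 952 and 1324 against 523 and 627 (0.83 ± 0.21) and kept its call only without TSA replicate 2. Smarca4, an ATPase of a chromatin remodelling complex (0.54 ± 0.12), kept its call only without control replicate 2. Of 11 genes in a list of common responses to deacetylase inhibitors, 1 was higher (Gadd45b, above) and the median was 0.31.

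Of 28 tested cytoskeletal and smooth muscle genes 7 were higher with TSA, 0 were lower and the others did not pass, 6 of the 28 having a change below 0 (median 0.31); 4 to 6 were higher with an array left out. The shares over all genes tested were 2.77% higher and 3.48% lower. Myl9, the regulatory light chain of smooth and non-muscle myosin, read 8493 and 7871 with TSA and 3015 and 2171 in control. Both TSA arrays were far above both control arrays (3.16-fold, 1.62 ± 0.16, adjusted p = 6.34e-05). Tagln, the actin-binding protein transgelin, read 3722 and 3305 against 1471 and 1435 (1.2 ± 0.20), and nestin, Nes, an intermediate filament protein of myoblasts, 14512 and 16059 against 7686 and 6571 (1.09 ± 0.12). Profilin 2, Pfn2, read 957 and 834 against 154 and 54.8 (2.12 ± 0.21, adjusted p = 7.49e-05), with a control level too dim for a fold. These 4 genes passed without each array in turn. Vinculin, Vcl (0.63 ± 0.12), kept its call only without control replicate 2, with a second probe set that did not pass (0.32), and Cnn2 (0.63 ± 0.16) and Fhl1 (0.35 ± 0.094) kept theirs in none of the 4 fits (adjusted p up to 0.22 and 0.195).

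The CArG box is the sequence bound by serum response factor, which is known to act on genes of the actin cytoskeleton and of muscle. It was found in 1.47% of all windows of 250 bases and in 76 of the 4542 tested genes (1.67%). Among higher genes 8 of 125 held it (6.40%: Myl9, Vcl, Cnn2, Fhl1, Lima1, Gsto1, Pitpna and Ppif) and among lower genes 4 of 161 (2.48%: Acta1, Actc1, Igf2 and Stbd1). The element was thus on both sides, in cytoskeletal genes that were higher and in sarcomeric actin genes that were lower. The window of Myl9 at chr2:156775214-156775463 on the plus strand is shown with its CArG box in capitals.
Myl9: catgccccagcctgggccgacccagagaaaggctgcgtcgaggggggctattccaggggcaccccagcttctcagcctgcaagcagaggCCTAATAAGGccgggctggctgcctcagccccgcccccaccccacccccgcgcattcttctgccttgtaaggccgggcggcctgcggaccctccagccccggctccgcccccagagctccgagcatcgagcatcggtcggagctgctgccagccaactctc

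Among 40 tested genes of the extracellular matrix 3 were higher and 5 lower (median -0.043), beside 2.77% and 3.48% over all genes tested. Tenascin C, Tnc, read 5233 and 5151 with TSA and 1823 and 2086 in control (1.35 ± 0.14, adjusted p = 0.000121), and Timp1, an inhibitor of matrix proteases, 18247 and 17677 against 9496 and 9378 (0.92 ± 0.16). Both were higher on both TSA arrays; a second probe set of Tnc did not pass (0.75, adjusted p = 0.155). Collagens Col6a1 (858 and 1112 against 2408 and 2603; -1.24 ± 0.19) and Col3a1 (7799.7 and 8126 against 13777 and 13703; -0.78 ± 0.13) were lower. The remaining members lost their call without an array: Col6a3 (-0.93) without control replicate 3, control replicate 2 or TSA replicate 2 (adjusted p = 0.0995, 0.0658 and 0.115), Fbln2 (-0.81) without control replicate 2 or TSA replicate 3 (0.0576 and 0.0617), and Lamc1 (-0.65) and the higher Col5a2 (0.46) in all 4 fits (up to 0.193 and 0.223). The matrix protein Mgp, named by the rule for the largest changes, read 17768 and 12922 with TSA and 4599 and 4955 in control (3.21-fold, 1.64 ± 0.21), and the integrin ligand nephronectin, Npnt, 934 and 1038 against 232 and 218 (1.63 ± 0.15). Of 17 fusion and adhesion genes 3 were higher and 1 lower. Caveolin 3, Cav3, of the muscle membrane, was lower at 20.9 and 30 against 254 and 246 (-1.25 ± 0.13). M-cadherin, Cdh15 (0.49), passed only without control replicate 2 of the 4, while Cd82 (0.52) and Il4ra (below 0 on both control arrays) in none of the 4 fits.

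Smaller groups gave few calls, to be read beside the 2.77% higher and 3.48% lower over all genes tested. Of 17 fatty acid oxidation genes 4 were lower and 0 higher (median -0.46): Cpt1a, which admits fatty acids to mitochondria (771 and 679.7 against 2202 and 2019; -1.38 ± 0.16), the thiolase Acaa2 (-0.68 ± 0.094), and, less firmly, Hadh (-0.62) and Etfa (-0.45). Hadh lost its call without control replicate 3 (adjusted p = 0.106) or TSA replicate 2 (0.101), and Etfa without any of the 4 arrays (up to 0.248). In the heat shock list 3 of 17 were higher, the Hsp40 co-chaperones Dnaja1 (3267 and 2819 against 1351 and 1396; 1.07 ± 0.14) and Dnajb1 (0.76) and the nucleotide exchange factor Hsph1 (0.63), and mitochondrial Hspa9 was lower (-0.97 ± 0.14). Without control replicate 3 or TSA replicate 3, Dnajb1 missed the threshold (adjusted p = 0.143 and 0.122), and Hsph1 did so without any array (up to 0.125). Among 19 immediate early genes Klf4 (297 and 389.5 against 1752 and 1895; -2.03 ± 0.19) and Myc (140.3 and 81 against 329.9 and 414; -1.04 ± 0.16) were lower.

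Of 10 tested p53 targets Zmat3 was higher (0.90 ± 0.15), and Gadd45a and Plk2 (-0.62) were lower, Plk2 not without control replicate 3 (adjusted p = 0.107), TSA replicate 3 (0.0756) or TSA replicate 2 (0.0672). Among 24 antioxidant genes thioredoxin reductase, Txnrd1, was higher (0.58 ± 0.12) and the glutathione transferase Gsta4 lower (26.8 and 112 against 429 and 408; -1.46 ± 0.25), and Txnrd1 lost its call without control replicate 2 (0.0862) or TSA replicate 3 (0.071). Of 7 tested chemokines Cx3cl1 was higher, at 298 and 279.5 with TSA and below 0 on both control arrays (-60.9 and -77.4). Cxcl12 did not pass on its brightest probe set (-0.78 ± 0.29, adjusted p = 0.16), while 2 dimmer ones passed as lower (-1.18, adjusted p = 0.000312, and -1.23, adjusted p = 0.000769). Over all genes tested 2.77% were higher and 3.48% lower, and the counts of this paragraph are to be read beside these shares. In the respiratory chain list 2 of 43 genes were higher, Cycs (0.78) and Uqcrh (0.56), in the proteasome list 1 of 30, Psmd13 (0.52), and these 3 passed in none of the 4 fits with an array left out (up to 0.259, 0.174 and 0.144). Of 18 ribosomal protein genes 1 was lower, Rpl22 (-1.7 ± 0.31), not without TSA replicate 2 (0.0576), and a second probe set of it did not pass (-0.39). In limma 0 of 9 tested interferon and antigen presentation genes and 0 of 20 sterol and lipid synthesis genes passed (1 and 7 at an unadjusted p under 0.05), the latter with a median of 0.006; with an array left out, 0 to 1 and 0 passed. Other probe sets of 2 sterol and lipid genes did pass, lower for Scd1 (-0.48, adjusted p = 0.0201) and higher for Elovl6 (1.15, adjusted p = 0.0097).

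Several genes of these lists have a second probe set that did not pass. It had the same sign for Cav3 (-0.28), Gadd45b (0.29) and Il4ra (0.28), and the opposite sign for Ccnd1 (-0.14), Cd82 (-0.33) and Fhl1 (-0.12), so the direction of the last 3 rests on the brighter probe set. For Pdia6 one further probe set passed (1.17) and another did not (0.35), both higher with TSA.

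**Figure D3:**
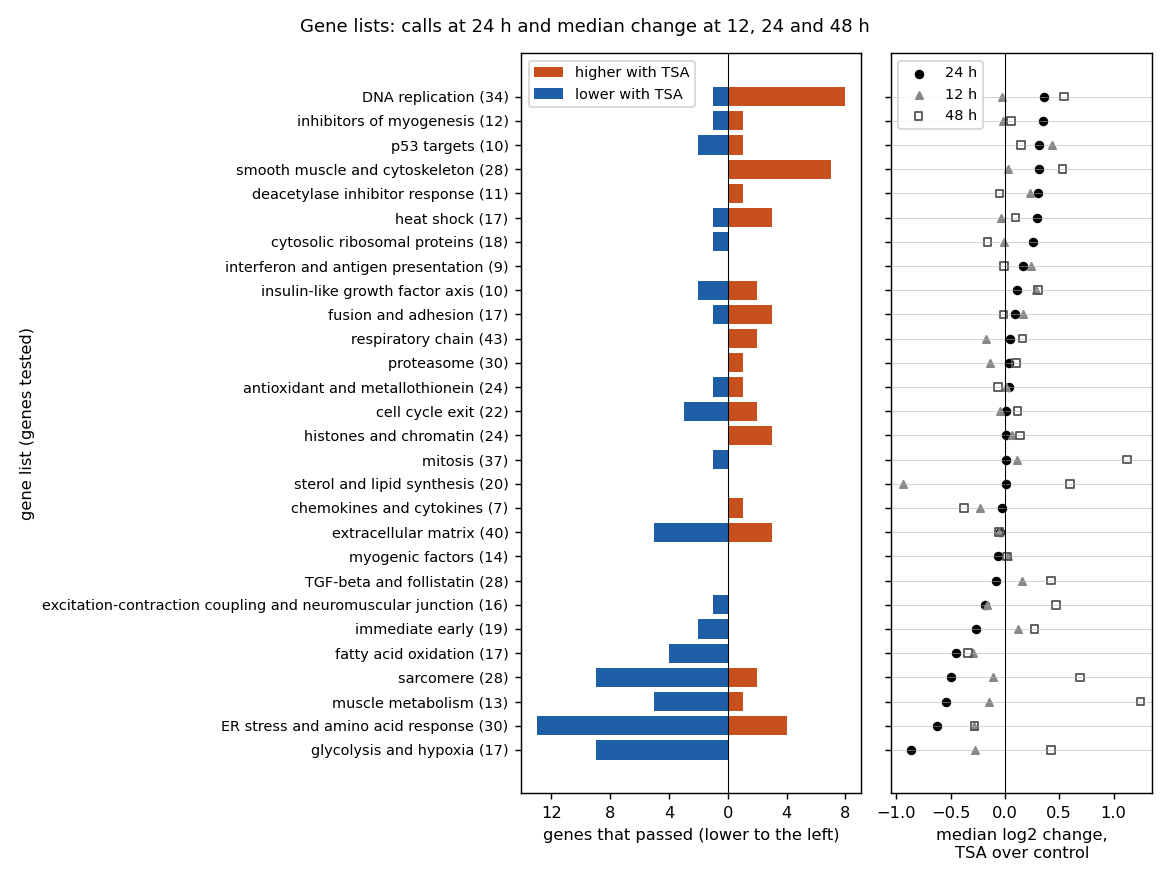
Gene lists ordered by their median change at 24 h. Left, the number of genes that passed at 24 h, higher to the right and lower to the left, with the number tested in brackets; right, the median log2 change, TSA over control, at 24 h (filled circles), 12 h (triangles) and 48 h (open squares). The glycolysis and hypoxia list and the ER stress and amino acid list have the lowest medians at 24 h, and the sarcomere and muscle metabolism lists lie below 0 at 24 h and above 0 at 48 h.

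The rule for the largest changes named further genes outside these lists. Stbd1, a glycogen-binding protein, read 368 and 372 with TSA and 4270.2 and 3868 in control (11-fold lower, -3.05 ± 0.13, adjusted p = 3.36e-08). Cyb5r1, a cytochrome b5 reductase, read 1121 and 1204 against 4414 and 5088 (-1.91 ± 0.13). The groups lay well apart in both genes. Chchd10, a mitochondrial protein, read 428 and 149 against 2759 and 2346 (-2.74 ± 0.51) and lost its call without TSA replicate 3 (adjusted p = 0.0725), and Dhrs7 (208 and 174 against 1585 and 1579; -2.39 ± 0.56) lost it without any of the 4 arrays (up to 0.119). F3, tissue factor, the starter of coagulation, was chosen after its values were seen and read 265 and 500.0 against 1654 and 1738 (-1.85 ± 0.20). On the higher side, Frmd6 read 1474 and 617 against 128 and 134 (2.04 ± 0.28), with TSA replicate 2 more than TSA replicate 3 and both above control. Slco3a1, an organic anion transporter, read 534 and 737 against 46.8 and 109.5 (1.84 ± 0.23), without overlap. Prkg2, a cyclic GMP-dependent kinase, was below 0 on both control arrays and at 613 and 414 with TSA. Pygo2 (2.05) kept its call only without control replicate 2, and Chst2 (1.5) in none of the 4 fits (up to 0.121), although a second probe set of Chst2 passed (2.09, adjusted p = 0.0362).

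The effect of TSA at 24 h was set against that at 12 h and at 48 h, to ask which changes were different at 24 h; the arrays of the single times are separate, while both differences use the 24 h arrays. Between 12 and 24 h the effect changed in 94 of 5636 genes (1.67%), upwards in 29 (0.515%) and downwards in 65 (1.15%). Downward differences held Ndrg1 (-2.73 ± 0.24, adjusted p = 0.00011), Ddit3 (-3.3 ± 0.48), Trib3 (-3.65 ± 0.55) and Gadd45a (-2.37 ± 0.31), none of which had passed at 12 h. Upward ones held Manf (1.2 ± 0.19), Myl9 (1.41 ± 0.22) and Idi1, an enzyme of sterol synthesis (1.49 ± 0.19, adjusted p = 0.00155). Idi1 read 3982 ± 263 with TSA and 8712 ± 804 in control at 12 h (mean ± SD, n = 2), against 4800.4 ± 4.76 and 3643 ± 6.95 at 24 h, so the lower level with TSA at 12 h was gone at 24 h. Of the 20 tested sterol and lipid genes 9 had such an upward difference and 0 a downward one. Beside 114 of 7453 probe sets (1.53%) with all arrays, 42 passed without TSA replicate 2 of 12 h, 58 without TSA replicate 1 of 12 h, 58 without control replicate 3 of 24 h, 65 without control replicate 2 of 12 h and 69 without TSA replicate 3 of 24 h.

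Between 24 and 48 h the effect changed in 460 genes (8.16%), upwards in 280 (4.97%) and downwards in 180 (3.19%). Muscle genes were prominent in the upward direction: 15 of 28 sarcomere genes and 9 of 13 genes of muscle metabolism had a higher effect at 48 h than at 24 h, and 1 and 0 a lower one. Tnnc1 read 28219.7 ± 3828 with TSA and 22699 ± 1773 in control at 48 h, so the TSA arrays were no longer lower (difference 2.01 ± 0.37, adjusted p = 0.00558). For Myh3 the order turned, with 20265 ± 3109.7 with TSA against 8323 ± 477 in control at 48 h (difference 2.73 ± 0.19). Mb was near 0 with TSA at 24 h and at 7731 ± 449 at 48 h, when control read 300.2 ± 63.8. The sarcomere list had 9 lower and 2 higher genes at 24 h, and 0 lower and 13 higher at 48 h. Of the 30 tested genes for ER stress and the amino acid response, 6 had a higher effect at 48 h than at 24 h and 2 a lower one, and the list median was -0.63 at 24 h and -0.28 at 48 h. Hspa5 read 12087 ± 1405 with TSA and 14469 ± 1775 in control at 48 h, so the TSA mean was no longer the higher one. Ddit3 and Trib3 were still lower with TSA at 48 h, by 2.64 and 2.42 on the log2 scale, and for neither did the difference between 48 h and 24 h pass (adjusted p = 0.518 and 0.398; differences 0.59 ± 0.48 and 0.85 ± 0.55).

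**Figure D4:**
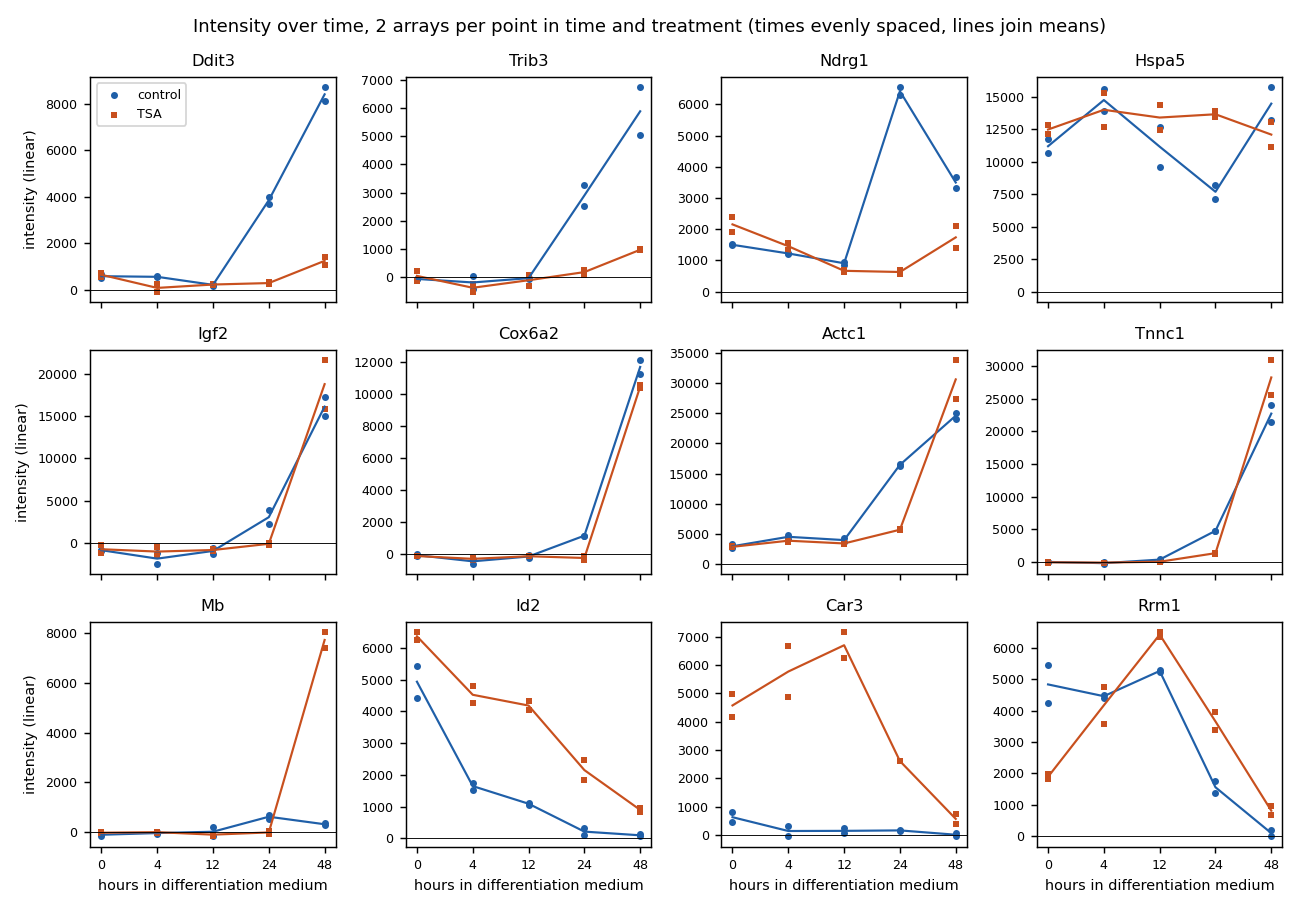
Intensity of 12 genes on a linear scale at 0, 4, 12, 24 and 48 h (evenly spaced), with 1 point per array, lines through the means of 2 arrays, blue for control and orange for TSA. At 24 h the control arrays stand above the TSA arrays for Ddit3, Trib3, Ndrg1, Igf2, Cox6a2, Actc1, Tnnc1 and Mb, and below them for Hspa5, Id2, Car3 and Rrm1; by 48 h Actc1, Tnnc1, Igf2 and Cox6a2 are high in both groups.

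Few calls of 24 h were shared with all other times. Over all genes tested, 8.45% were higher and 10.4% lower at 0 h, 5.98% and 5.91% at 4 h, 2.43% and 1.63% at 12 h, and 10.9% and 9.14% at 48 h. Of the 156 higher genes, 79 were also higher at 48 h (50.6% of the 24 h calls and 12.8% of the 617 calls at 48 h) and 46 at 12 h (29.5% and 33.6% of 137). Of the 196 lower genes, 77 were also lower at 48 h (39.3%, and 15% of 515) and 30 at 12 h (15.3%, and 32.6% of 92). At 48 h 10 of the higher and 25 of the lower genes passed in the opposite direction. Being higher at all 5 times was found for 20 genes, and being lower at all 5 for 1 gene, whereas 51 higher and 76 lower genes passed in that direction at 24 h only. Car3 and Pfn2 had changes above 0 at all 5 times, but of varying size: Car3 changed by 2.65, 4.53, 4.64, 3.18 and 2.02 at 0, 4, 12, 24 and 48 h, and Pfn2 by 3.23, 2.78, 2.96, 2.12 and 1.74.

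The calls at 24 h were then read against the course of untreated differentiation, taken from control arrays at 12 and 48 h. These arrays enter the comparison at 24 h through the spread per gene and not through its means, so a gene of small spread passes both tests more easily, and the part of this in the shares below was not tested. Between these times 1922 genes changed in control cells (34.1%): 919 rose (16.3%) and 1003 fell (17.8%). Of the genes that rose, 122 were lower with TSA at 24 h (13.3%) and 16 higher (1.74%), beside 3.48% and 2.77% over all genes tested. Of those that fell, 85 were higher with TSA (8.47%) and 15 lower (1.5%). Among the 3714 genes without such a change 59 were lower and 55 higher (1.59% and 1.48%). The median change with TSA was -0.15 in genes that rose and 0.11 in genes that fell. With an array of 24 h left out, 68 to 79 of the rising genes were lower and 6 to 10 higher, and 37 to 52 of the falling genes were higher and 5 to 10 lower. Across the 5636 genes, which are not independent of each other, the change with TSA at 24 h and the change of control from 12 to 48 h had a Pearson r of -0.29 and a Spearman rho of -0.22; they share the normalisation of the series but no array.

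**Figure D5:**
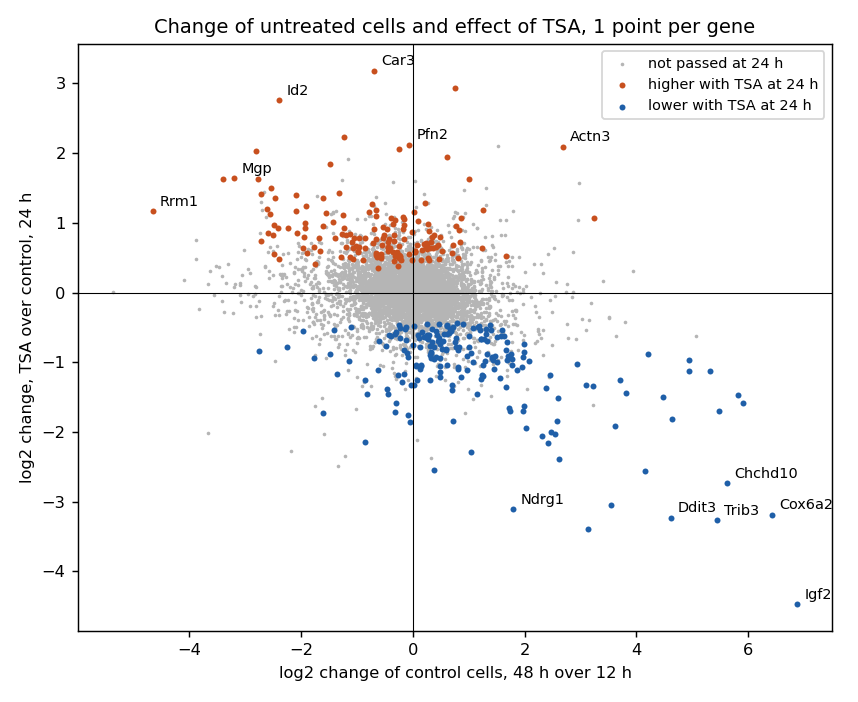
Change with TSA at 24 h (vertical axis, log2) against the change of control cells from 12 to 48 h (horizontal axis, log2), 1 point per gene, with the 2 changes taken from the means of separate arrays. Genes lower with TSA (blue) lie mostly to the right, where control cells rose, with Igf2, Cox6a2, Trib3, Ddit3 and Chchd10 furthest, and genes higher with TSA (orange) lie more often to the left; Actn3 is an exception, higher with TSA and rising in control.

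Of the 352 genes that passed at 24 h, 207 had moved in control against the direction of TSA, 31 had moved in the same direction and 114 had no such change. Actn3 rose in control cells from 12 to 48 h (2.68 ± 0.46) and was higher with TSA at 24 h. Cpt1a and Gsta4 fell in control cells (-0.47 ± 0.16 and -0.82 ± 0.25) and were lower with TSA at 24 h, both without overlap and in each fit with an array left out. Ndrg1 rose in control by 1.8 over the same time, but through a peak at 24 h, with means of 908, 6423 and 3497 at 12, 24 and 48 h, whereas the TSA means were 667, 628 and 1738. For Bnip3 and Pdk1, whose control levels also peaked at 24 h, the change from 12 to 48 h in control did not pass (-0.08 ± 0.22 and -0.31 ± 0.14), so they count among the genes without such a change although both were lower with TSA at 24 h.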

How the data were processed

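Total RNA of C2C12 cells was measured on Affymetrix mouse arrays of 12488 probe sets. The authors deposited linear intensities, 1 for each probe set on each array; their scaling and the software behind them are not given in the sources used here. Of all values in the 20 arrays with TSA or its controls, 22.1% were at or below 0. Groups were taken from array titles; replicate 3 of both 24 h groups carries a suffix b there, of unstated meaning. After removal of 66 control probe sets, 10833 of 12422 had 1 gene symbol in the platform annotation (396 several, 1193 none; 10817 updated by Entrez number), for 8251 genes.

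Values below 0 were set to 0, a pseudocount of 137.7 (the 40th percentile) was added and log2 taken. Probe sets with a mean of at least 144.9 (the 40th percentile of means), 7453 in all, were fitted in limma 3.58.1 (R 4.3.3) with 1 mean for each of 10 groups (residual df 10), and p-values were adjusted by Benjamini-Hochberg. The fit was tested on simulated data for the 24 h comparison over 7453 probe sets. It recovered 16.4%, 62.7% and 80.3% of log2 changes of 0.5, 1 and 2, and called 4 of 7253 unchanged probe sets. The simulated log2 values were independent and normal, with 1 SD per probe set for all groups and no values set to 0. The measured values may depart from this, so these rates need not hold for them. Replicate numbers were not taken to pair arrays: deviations of same-numbered arrays had a correlation of 0.23 between the 24 h groups and of -0.11 to 0.23 between others.

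The members and gene lists were chosen with earlier results of these data known. Genes were named by rule: the largest changes in each direction, those with 1 group at or below 0, fixed genes of interest, the members of smallest p in each list and the 5 of smallest p in each direction of the differences between times; others are marked where named. Alternatives were other normalisations, pseudocounts, filters, variance settings, covariates and leaving out each array. Promoters came from RefSeq (GRCm38.p6). Python 3.11.15, pandas 2.3.3, numpy 2.4.6, scipy 1.17.1 and matplotlib 3.10.9 were used.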

Additional observations from a re-analysis of the deposited data

Results flagged for a closer look

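The effect of TSA at 24 h was tested against that at 12 h, and the 5 genes of smallest p in each direction are given because their effects differed between the times (difference of log2 changes, SE, limma). Lower at 24 h than at 12 h were Cox6a2 (-3.19 ± 0.12, adjusted p = 2.63e-08), Igf2 (-4.47 ± 0.29, adjusted p = 6.49e-06), Ndrg1 (-2.73 ± 0.24, adjusted p = 0.00011), Stbd1 (-2.05 ± 0.19, adjusted p = 0.00011) and Cyb5r1 (-2.21 ± 0.19, adjusted p = 6.91e-05). For Cox6a2 and Igf2 the TSA arrays were at or below 0 at both times, so the difference reflects control arrays that were below 0 at 12 h and not at 24 h. Higher at 24 h than at 12 h were Rgs3, a regulator of G-protein signalling (1.8 ± 0.19, adjusted p = 0.000379), Idi1 (1.49 ± 0.19, adjusted p = 0.00155), Tmem50b, a membrane protein (1.18 ± 0.18, adjusted p = 0.00689), Manf (1.2 ± 0.19, adjusted p = 0.00801) and Myl9 (1.41 ± 0.22, adjusted p = 0.00801). Tmem50b read 1551 and 1329 with TSA and 698 and 696 in control at 24 h.

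The effect at 48 h was likewise tested against that at 24 h, which shares the 24 h arrays with the former test. Higher at 48 h were Cox6a2 (3.03 ± 0.12, adjusted p = 2.44e-08), Myh7, slow myosin heavy chain (3.19 ± 0.15, adjusted p = 6.78e-08), Ckb, brain creatine kinase (3.19 ± 0.18, adjusted p = 5.27e-07), Igf2 (4.67 ± 0.29, adjusted p = 1.09e-06) and Mb (6.46 ± 0.40, adjusted p = 1.09e-06). The log2 change of Myh7 at 24 h was 0, whichever array was left out, so its difference is the effect at 48 h. At 24 h both TSA arrays were at or below 0 for Cox6a2 and Igf2, and TSA replicate 2 for Mb. Values set to 0 have no spread, so the p of these 4 genes may be too small. Ckb read 20406 ± 2769 with TSA and 2114 ± 196 in control at 48 h (mean ± SD, n = 2), against 5401 ± 113 and 5432 ± 386 at 24 h. Lower at 48 h were Gsto1, an omega glutathione transferase (-1.73 ± 0.15, adjusted p = 1.87e-05), Ets2, a transcription factor (-2.28 ± 0.22, adjusted p = 4.17e-05), Sat1, which acetylates polyamines (-2.26 ± 0.22, adjusted p = 4.17e-05), Txnip, a binding partner of thioredoxin (-2.83 ± 0.30, adjusted p = 9.07e-05), and the proteoglycan versican, Vcan (-2.22 ± 0.24, adjusted p = 0.000132). Groups of 2 arrays are too small for a test of a single outlying array.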

How the results depend on the processing

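The count of 443 probe sets that passed at 24 h lay between 409 and 517 under other normalisations, pseudocounts, filters, variance settings and covariates, and no sign turned among the 352 genes that passed; the median log2 change of all tested stayed between 0 and 0.012 under them. With the spread taken from the compared groups alone, which leaves few degrees of freedom, 9 passed for TSA against control at 24 h, 12 for the TSA effect at 24 h minus TSA effect at 12 h, 95 for the TSA effect at 48 h minus TSA effect at 24 h and 1018 for control at 48 h against control at 12 h. Without 1 array the counts ran from 231 to 278 at 24 h, from 42 to 122 (24 h minus 12 h), from 396 to 591 (48 h minus 24 h) and from 1880.0 to 2241 (control). With the replicate number as a block, 412, 104, 555 and 2471 passed, and 300 of the 352 genes kept their call; the block also brought Slc2a1 past the threshold (adjusted p = 0.0372), and the labels do not say that numbers pair the arrays. Of 20 sterol and lipid genes, 1 was higher with the block, the 60th percentile filter, the trend and robust variance or the suffix b as covariate, and 1 lower with the variance setting. Signs turned only for genes that had not passed: Ckb to 0.0027 under median centring and between -0.077 and 0.064 without an array (0.064 without control replicate 2, 0.014 without TSA replicate 2), Sat1 to -0.066 without control replicate 2 (highest 0.32), Vcan to -0.00057 without TSA replicate 3 (highest 0.29), Phgdh to 0.037 without TSA replicate 2 (lowest -0.37), and Shmt2 to 0.44 without control replicate 3 and 0.40 without TSA replicate 2 (lowest -0.72). With 1 array fewer, 157 to 183 of the 352 genes kept their call. Dim genes are limited by values at or below 0.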
